A study of Mus musculus with 6 samples.

Results

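The genes described here are 6 inhibitory checkpoint receptor genes, Ctla4, Lag3, Havcr2 (which encodes TIM-3), Tigit, Cd160 and Entpd1 (which encodes CD39), out of 32285 genes in the count matrices. They were chosen by name, and their raw counts were followed across T cells, natural killer (NK) cells and dendritic cells of every library. Single immune cells had been sequenced from mouse colon tumours labelled Control or SOX17KO, after the transcription factor gene Sox17. Viable leukocytes without the epithelial antigen EpCAM had been sorted, and the 10x Genomics 3' v3 chemistry tagged each captured RNA molecule with a unique molecular identifier (UMI). The groups were Control and SOX17KO at 1 week, Control and SOX17KO at 2 weeks, and a Control and a SOX17KO library whose labels give no time, called the untimed pair. Each of these 6 groups was 1 library, and it pooled tumours, of 5 mice per condition as the deposited description has it. The labels used here do not state the strain, the allele, any Cre driver, which cells carried the knockout or what the weeks were counted from. Because no group had a second library, values of 1 library carry 95% intervals that cover counting error only.

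Checkpoint receptors are surface proteins that restrain lymphocytes after activation. CTLA-4 competes with the costimulatory receptor CD28 for the ligands CD80 and CD86, LAG-3 binds MHC class II, TIM-3 binds several ligands including galectin-9, and TIGIT competes with CD226 for the poliovirus receptor, encoded by Pvr. CD160 binds HVEM, encoded by Tnfrsf14, and CD39 is an ectoenzyme that degrades extracellular ATP, after which CD73, encoded by Nt5e, forms adenosine. In tumours these genes are known for their joint expression on chronically stimulated CD8 T cells, but CTLA-4 and TIGIT are also typical of regulatory T cells, TIM-3 of type 1 dendritic cells and CD39 of myeloid cells.

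In the mm10 build (GENCODE annotation, matched by Ensembl identifier) all 6 are protein-coding genes. Ctla4 (ENSMUSG00000026011) lies on the plus strand at chr1:60887000-60915832, with Icos and Cd28 as the nearest other coding genes. Lag3 (ENSMUSG00000030124) lies on the minus strand at chr6:124904361-124911705, next to Ptms and Cd4. Havcr2 (ENSMUSG00000020399) lies on the plus strand at chr11:46454935-46481255 and Tigit (ENSMUSG00000071552) on the minus strand at chr16:43648867-43664146. Cd160 (ENSMUSG00000038304), on the minus strand at chr3:96798763-96829351, overlaps Pdzk1 on the other strand. Entpd1 (ENSMUSG00000048120), on the plus strand at chr19:40612366-40741602, overlaps AC166063.1 on the same strand. No source used here states whether counting used strand, so reads in these overlaps could not be assigned with certainty.

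Promoter windows from RefSeq (GRCm38.p6, 250 bases before to 50 after a start) were at hand for 5 of the 6 genes, all but Lag3. The letters TGTGGT, the core bound by RUNX factors, searched on both strands, occurred in windows of 4 of these 5 genes (5 of 7 windows), against 16.8% of 32851 windows of the same length over all genes. The windows of Havcr2, Tigit and Cd160 are printed here because each holds that core before the start, and Havcr2 also holds the AP-1 letters TGANTCA, which 7.81% of windows hold on either strand. The 250 bases before the start are given 5' to 3' on the strand of the gene, with matches in capitals (ACCACA is TGTGGT on the other strand):
Havcr2, chr11:46454681-46454930, plus strand: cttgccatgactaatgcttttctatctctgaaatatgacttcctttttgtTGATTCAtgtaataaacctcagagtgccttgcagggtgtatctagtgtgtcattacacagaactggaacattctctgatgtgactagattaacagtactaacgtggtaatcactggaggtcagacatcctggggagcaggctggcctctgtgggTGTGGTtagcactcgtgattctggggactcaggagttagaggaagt
Tigit, chr16:43664185-43664434, minus strand: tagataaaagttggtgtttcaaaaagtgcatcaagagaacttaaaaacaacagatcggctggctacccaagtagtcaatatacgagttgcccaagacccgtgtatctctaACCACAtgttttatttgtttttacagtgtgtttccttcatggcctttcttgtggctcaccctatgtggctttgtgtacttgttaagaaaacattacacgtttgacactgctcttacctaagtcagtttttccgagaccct
Cd160, chr3:96829352-96829601, minus strand: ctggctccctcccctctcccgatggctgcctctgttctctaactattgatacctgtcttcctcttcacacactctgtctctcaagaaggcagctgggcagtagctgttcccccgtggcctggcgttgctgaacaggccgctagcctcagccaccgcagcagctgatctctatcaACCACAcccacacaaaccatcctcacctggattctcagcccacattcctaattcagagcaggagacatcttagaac
The Ctla4 window held no TGTGGT, and the AP-1 letters were in the window of Havcr2 alone. A match describes these letters only and was not tied to any of the counts below.

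The 6 libraries held 3163 to 7495 barcodes and 18281322 to 52150180 UMIs, and 32167 of 34607 barcodes were kept, with 4 to 13 barcode sequences shared between any pair of libraries. Cells were assigned by UMI counts of marker genes, none of them a member. Of 20 markers that no gate used, named after the data had been seen, 19 were highest on average in the gate they mark, for example Ikzf2 in regulatory T cells, Cadm1 in type 1 dendritic cells and Ccl22 in mature dendritic cells. The exception was Nkg7, meant for CD8 T cells and higher in NK cells. Sox17 itself gave 3 to 20 UMIs per library in the kept cells, so in these sorted leukocytes it could not check the genotype labels. T cells were few at 1 week (143 Control and 182 SOX17KO), only 17 of them CD8 T cells in the Control library, and a gate with under 20 cells in a library was left out of comparisons.

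All 6 genes were detected, and each had its own distribution over cell types, shown in the plot of levels by gate and library. Levels are given as CPM, the UMIs of a gene in a gate scaled to a common total of UMIs in that gate. The 3' chemistry counts transcript ends, so levels were compared for 1 gene across cells and not between genes. T cells held 84.1% of Ctla4, 82.8% of Tigit, 82.1% of Cd160 and 81.8% of Lag3 UMIs of the kept cells, but 51.0% of Havcr2 and 20.8% of Entpd1 UMIs. Monocytes and macrophages held 22.1% of the Havcr2 and 40.1% of the Entpd1 UMIs.

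**Figure D1:**
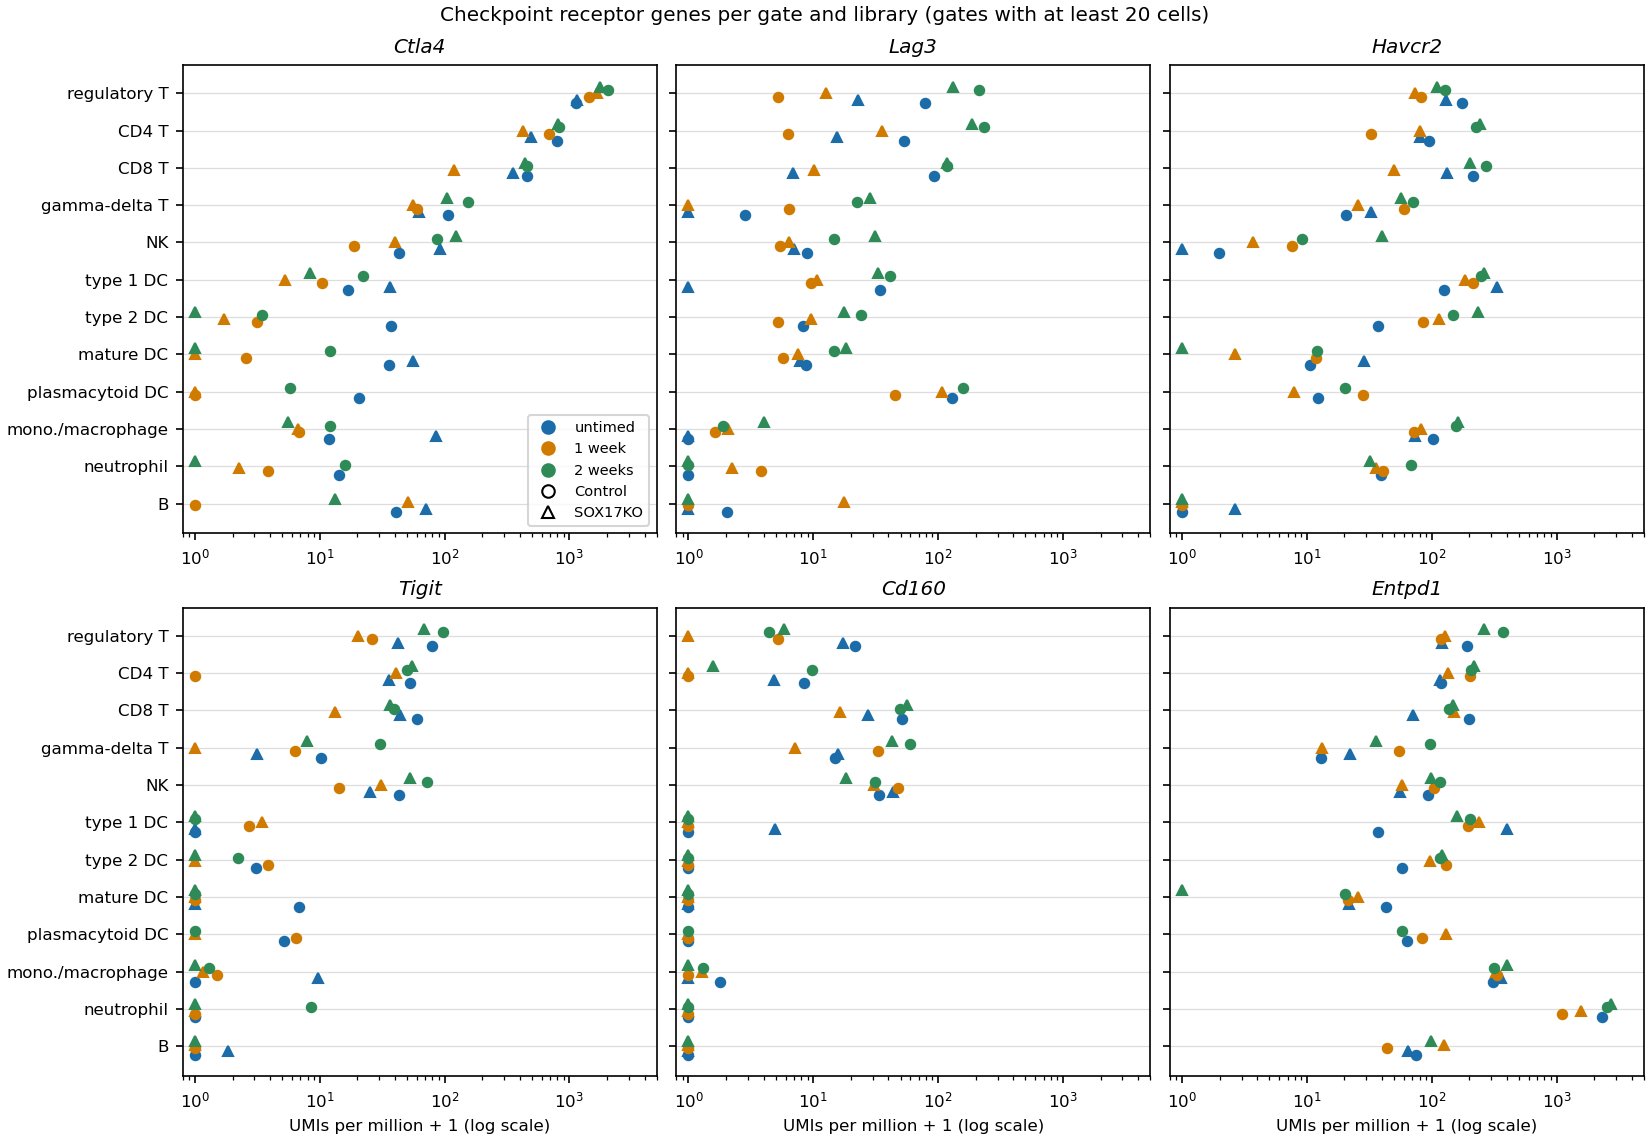
Level of each gene (horizontal axis, CPM plus 1, log scale) in 12 gates, 1 point per library with at least 20 cells, coloured by collection and shaped by genotype. By the mean over libraries Ctla4 is highest in regulatory T cells, Lag3 in plasmacytoid dendritic cells (4 libraries), Havcr2 in type 1 dendritic cells, Tigit in regulatory T cells, Cd160 in CD8 T cells and Entpd1 in neutrophils.

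By the mean over libraries, the highest gate was regulatory T cells for Ctla4 (1531 CPM ± 359, SD, n = 6) and for Tigit (54.3 ± 30.5, n = 6). It was plasmacytoid dendritic cells for Lag3 (109 ± 48.3, n = 4), type 1 dendritic cells for Havcr2 (228 ± 71.4, n = 6), CD8 T cells for Cd160 (39.0 ± 17.3, n = 5) and neutrophils for Entpd1 (2047 ± 688, n = 5). Between gates that were neighbours in the order, 72 differences were tested by exact permutation of their signs over libraries (two-sided), where 6 libraries allow no p below 0.0312. Only 27 of them shared 6 libraries, and with so few libraries no difference could have passed after Benjamini-Hochberg adjustment (lowest adjusted p possible 0.075), so the order of neighbours was not settled by these tests. In 3 the difference had the same sign in 6 of 6 libraries (unadjusted exact p 0.0312, adjusted p 0.562): Ctla4 in regulatory above CD4 T cells, Ctla4 in the T cells left without a subset above gamma-delta T cells, and Lag3 in regulatory T cells above the T cells without a subset.

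Ctla4, the competitor of CD28, was highest in regulatory T cells. In these cells it stood at 1137 CPM (Control) and 1149 (SOX17KO) without a stated time, 1428 and 1676 in the 1-week pair, and 2042 and 1752 in the 2-week pair. In CD8 T cells the values were 459 and 350 in the untimed pair, 119 in the 1-week SOX17KO library, and 460 and 439 at 2 weeks. Every library was higher in regulatory than in CD8 T cells, with no overlap between the 2 gates. In edgeR's quasi-likelihood test with the library as a block, Benjamini-Hochberg adjusted over all genes, Ctla4 was higher in regulatory than CD8 T cells by 2.09 ± 0.29 on the log2 scale (SE, 5 libraries, adjusted p 0.00322).

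In the same fit, which called 7.78% of 9209 genes (4.97% higher and 2.8% lower), 2 of the 6 members were called. The other was Cd160, lower in regulatory T cells by a log2 difference of -1.96 ± 0.41 (adjusted p 0.0210). Without the untimed Control library Cd160 did not pass the low-count filter, and without the 2-week Control library its adjusted p was 0.0806. Tigit (0.63 ± 0.22), Entpd1 (0.57 ± 0.24), Lag3 (0.39 ± 0.25) and Havcr2 (-0.47 ± 0.21) were not called. The members' median log2 difference was 0.48, against -0.03 over all genes tested.

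CD4 T cells without Foxp3 held Ctla4 at 792 and 493 CPM in the untimed pair, 680 and 426 in the 1-week pair, and 830 and 816 in the 2-week pair. Against CD8 T cells of the same libraries Ctla4 was higher by 0.91 ± 0.16 (adjusted p 0.0140, 5 libraries), in a fit that called 5.68% of 10246 genes (3.7% higher and 1.98% lower). That call was lost without the untimed Control library (adjusted p 0.0632), without the 2-week Control library (0.0677) and without the 2-week SOX17KO library (0.0561). Cd160 was lower in CD4 T cells by a log2 difference of -3.08 ± 0.39 (adjusted p 0.00409). The other 4 members were not called. CD8 T cells are the common reference of the comparisons with regulatory, CD4, gamma-delta and NK cells, so these 4 results are not independent of each other.

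In gamma-delta T cells 5 of the 6 members were called lower than in CD8 T cells, in a fit that called 7.74% of 7587 genes (5% higher and 2.74% lower). Lag3 differed by -3.36 ± 0.48 on the log2 scale (adjusted p 0.00115), Havcr2 by -2.28 ± 0.29 (0.000533), Entpd1 by -2.16 ± 0.45 (0.0125), Tigit by -2.09 ± 0.47 (0.0174) and Ctla4 by -1.95 ± 0.22 (0.000177). With gates raised by 1 UMI only Ctla4 and Havcr2 were called, the adjusted p of Tigit was 0.109 and that of Entpd1 0.107, and Lag3 did not pass the filter. Cd160 was not called in either (-0.73 ± 0.33, adjusted p 0.237), with 13.9 and 14.8 CPM in the untimed pair, 32.2 and 6.15 in the 1-week pair, and 59.0 and 41.5 in the 2-week pair. The Tigit call was lost when any of 4 libraries was left out: its adjusted p was 0.149 without the untimed Control, 0.0715 without the untimed SOX17KO and 0.0501 without the 2-week SOX17KO library, and it did not pass the filter without the 2-week Control library. Lag3 did not pass the filter without the untimed Control, 2-week Control or 2-week SOX17KO library. Myeloid marker genes (Lyz2, C1qa, C1qb and Apoe) summed to 45.2 to 2633 CPM in the CD8 gates of the libraries compared. In the same libraries they summed to 5.36 to 302 CPM in gamma-delta T cells and 6.05 to 248 CPM in NK cells. Their part in the differences from CD8 T cells, of members or other genes, was not tested.

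In NK cells 4 of the 6 members were called lower than in CD8 T cells, and Tigit and Cd160 were not called. Tigit, which in NK cells also restrains killing, was 42.5 and 24.2 CPM in the untimed pair, 13.3 and 29.8 in the 1-week pair, and 71.0 and 51.7 in the 2-week pair. Its log2 difference from CD8 T cells was 0.30 ± 0.27 (adjusted p 0.508), and that of Cd160 was -0.51 ± 0.31 (adjusted p 0.319). A p above the threshold does not show that the 2 cell types had equal levels.

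Called lower in NK cells were Havcr2 by -4.06 ± 0.50 (adjusted p 0.000333), Lag3 by -2.48 ± 0.34 (0.000668), Ctla4 by -2.27 ± 0.24 (0.000128) and Entpd1 by -0.73 ± 0.18 (0.0194), where 16.5% of 8265 genes were called (8.95% higher and 7.51% lower). The Entpd1 call was lost without the untimed Control library (adjusted p 0.113) or the 2-week SOX17KO library (0.0608), and Lag3 did not pass the filter without either 2-week library. Havcr2 in NK cells was at 0 to 8.19 CPM in 5 libraries and 38.8 in the 2-week SOX17KO library, where 2 of 160 cells carried all 36 UMIs. NK cells also held 116 to 524 UMIs of T cell receptor constant genes per library. Whether these UMIs came from T cells was not tested. At the T cells' own ratio of Ctla4 to those genes, they would come with 32.6 to 250 Ctla4 UMIs per library, where 15 to 114 were counted. The part of T cell RNA in the NK values was not tested.

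Dendritic cells carried Havcr2, Entpd1 and Lag3, and their levels differed between subsets, as the plot of dendritic cell levels shows. Havcr2, whose product on type 1 dendritic cells is known to limit their activation, stood at 125 and 334 CPM there in the untimed Control and SOX17KO libraries, 213 and 184 at 1 week, and 248 and 262 at 2 weeks. In type 2 dendritic cells it stood at 36.4 CPM in the untimed Control library, 84.6 and 113 at 1 week, and 147 and 235 at 2 weeks. Each of these 5 libraries was higher in type 1 cells, although the ranges of the 2 subsets overlap. The log2 difference was 0.82 ± 0.20 (adjusted p 0.0173), in a fit that called 22.6% of 7887 genes (10.5% higher and 12.2% lower), and it was lost without the 1-week Control library (adjusted p 0.0586).

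**Figure D2:**
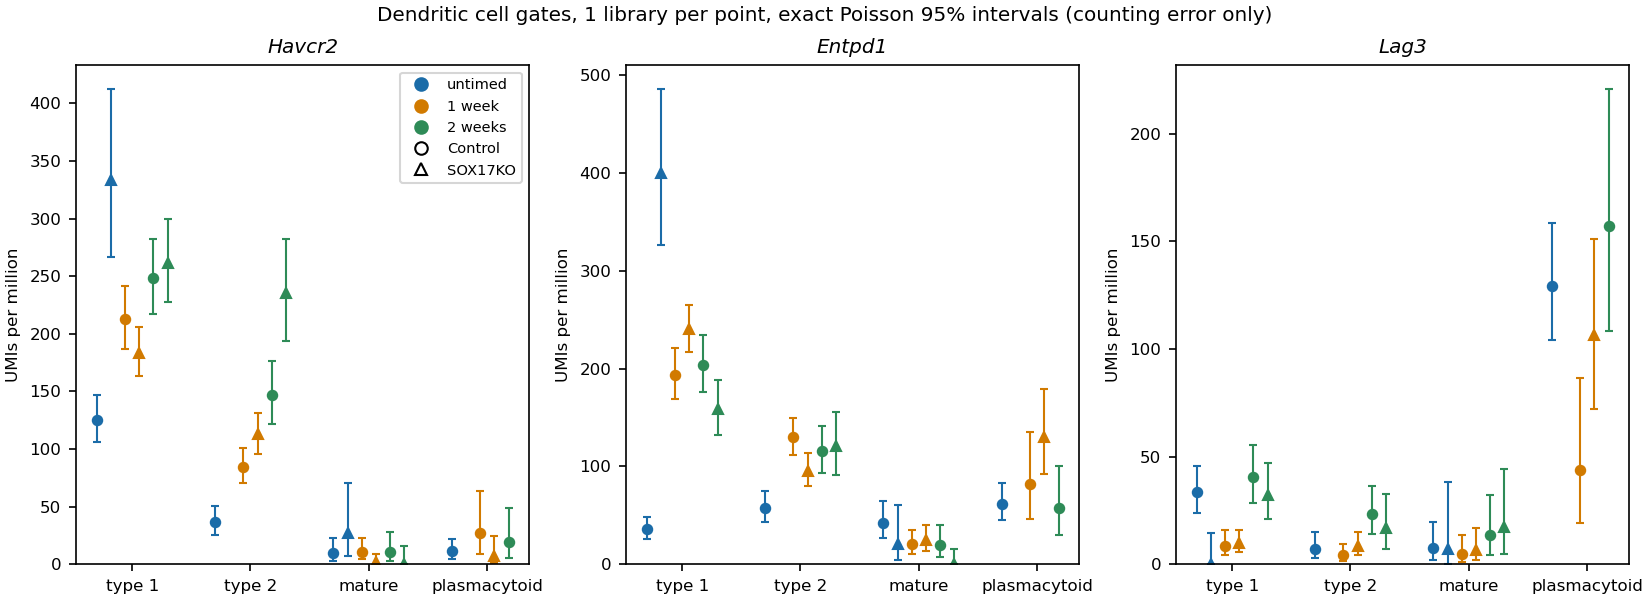
Levels in dendritic cell subsets by library (CPM), coloured by collection and shaped by genotype, for libraries with at least 20 cells of a subset. Havcr2 runs from 125 to 334 in type 1 cells and from 0 to 27.5 in mature cells, and Lag3 is highest in plasmacytoid cells.

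Mature dendritic cells, which have Ccr7 and Fscn1, held 0 to 27.5 CPM of Havcr2 and 0 to 42.4 CPM of Entpd1. Against type 1 cells Havcr2 differed by -4.32 ± 0.34 on the log2 scale (adjusted p 2.25e-06) and Entpd1 by -2.59 ± 0.51 (adjusted p 0.00160) over 6 libraries. These were the 2 members that passed the filter, in a comparison that called 47.6% of 6420 genes, 23.8% in each direction. Few T cell receptor UMIs were present in type 1 cells, 0 to 16 per library. In the untimed Control library 12 such UMIs would come with 1.21 Havcr2 UMIs at the T cells' ratio, where 150 were counted. Ctla4 was nearer to that ratio, with 19 UMIs counted and 5.41 at the T cells' ratio. The T cell receptor genes stood at 10.0 CPM in that gate and at 62.8 CPM in the untimed SOX17KO type 1 gate. Myeloid marker genes summed to 206 to 1733 CPM in the type 1 gates. The part of T cell or myeloid RNA in the type 1 values was not tested.

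Among dendritic subsets the mean level of Lag3 was highest in plasmacytoid cells, where the protein is an established marker. There it reached 129 CPM in the untimed Control library, 43.8 and 106 in the 1-week Control and SOX17KO libraries, and 157 in the 2-week Control library. Myeloid marker genes summed to 8532 and 6504 CPM in the 1-week plasmacytoid gates, near the 9231 and 8258 CPM of monocytes and macrophages there, against 87.2 and 100.1 CPM in the untimed and 2-week Control gates. Their part in the 1-week values was not tested. In the 2-week Control library Lag3 was higher in CD4 (232 CPM) and regulatory T cells (213) than in plasmacytoid cells. The share of these cells with a Lag3 UMI was 46.2%, 28.0%, 55.2% and 60.0% (exact 95% intervals 36.9 to 55.6, 12.1 to 49.4, 35.7 to 73.6 and 40.6 to 77.3). B cells, which served as a background, had a Lag3 UMI in 0.405% of 247 cells in the untimed Control library, in 4% of 25 cells in the 1-week SOX17KO library and in no cell of the other 4 libraries. Median UMIs per cell were 6613 in plasmacytoid and 3047 in B cells of the untimed Control library, and 7702 and 3797 in the 1-week SOX17KO library. The untimed SOX17KO library held only 2 plasmacytoid cells and the 2-week SOX17KO library 16, too few for comparison.

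Type 1 dendritic cells held Lag3 at 33.4 CPM in the untimed Control library, 8.61 and 9.67 at 1 week, and 40.5 and 31.9 at 2 weeks. No UMI was found in 32 cells of the untimed SOX17KO library, which allows, at 3 of 32 cells, a share of up to 9.38% of cells with a Lag3 UMI and sets no limit on cells expressing it. With that library set to the floor of 3 UMIs, the untimed Control library was 2.83-fold higher, a value without its counting error. The log2 difference of type 1 from type 2 cells was 0.93 ± 0.28 (adjusted p 0.0452). That call was lost without any of 4 libraries, with adjusted p 0.135 without the untimed Control, 0.0821 without the 1-week Control, 0.0970 without the 2-week Control and 0.0978 without the 2-week SOX17KO library. Tigit and Cd160 were near 0 throughout, at up to 5.78 CPM in dendritic subsets with at least 20 cells.

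Entpd1 was highest in neutrophils, followed by monocytes and macrophages. Neutrophils held it at 2316 CPM in the untimed Control library, 1100 and 1562 at 1 week, and 2546 and 2712 at 2 weeks. Monocytes and macrophages varied little between libraries, at 311 and 359 in the untimed pair, 334 and 325 in the 1-week pair, and 315 and 403 in the 2-week pair. Type 1 dendritic cells were at 194 and 240 CPM at 1 week and 204 and 158 at 2 weeks, but at 35.9 (Control) and 400 (SOX17KO) in the untimed pair. The untimed pair therefore holds both the lowest and the highest value of that subset. Myeloid marker genes (Lyz2, C1qa, C1qb and Apoe) summed to 206 CPM in the former and 640 in the latter gate, and to 1733 and 1390 at 1 week; their part in the Entpd1 values was not tested.

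Among CD8 T cells the untimed pair and the 2-week pair differed in how the genotypes compared, shown in the plot of T cell levels by library. Lag3 was at 91.8 CPM in the untimed Control library and 5.92 in the untimed SOX17KO library, while at 2 weeks it was at 116 in Control and 118 in SOX17KO. The share of CD8 T cells with a Lag3 UMI was 35.4% against 2.28% in the untimed pair, and 43.3% against 38.4% at 2 weeks. After thinning each cell to 1000 UMIs the shares were 9.58% against 0.574%, and 12% against 11.5%. The untimed SOX17KO library is thus the low one of these 4, also at equal depth. In the 1-week SOX17KO library, with 35 CD8 T cells, Lag3 was also low, at 9.13 CPM from 3 UMIs.

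**Figure D3:**
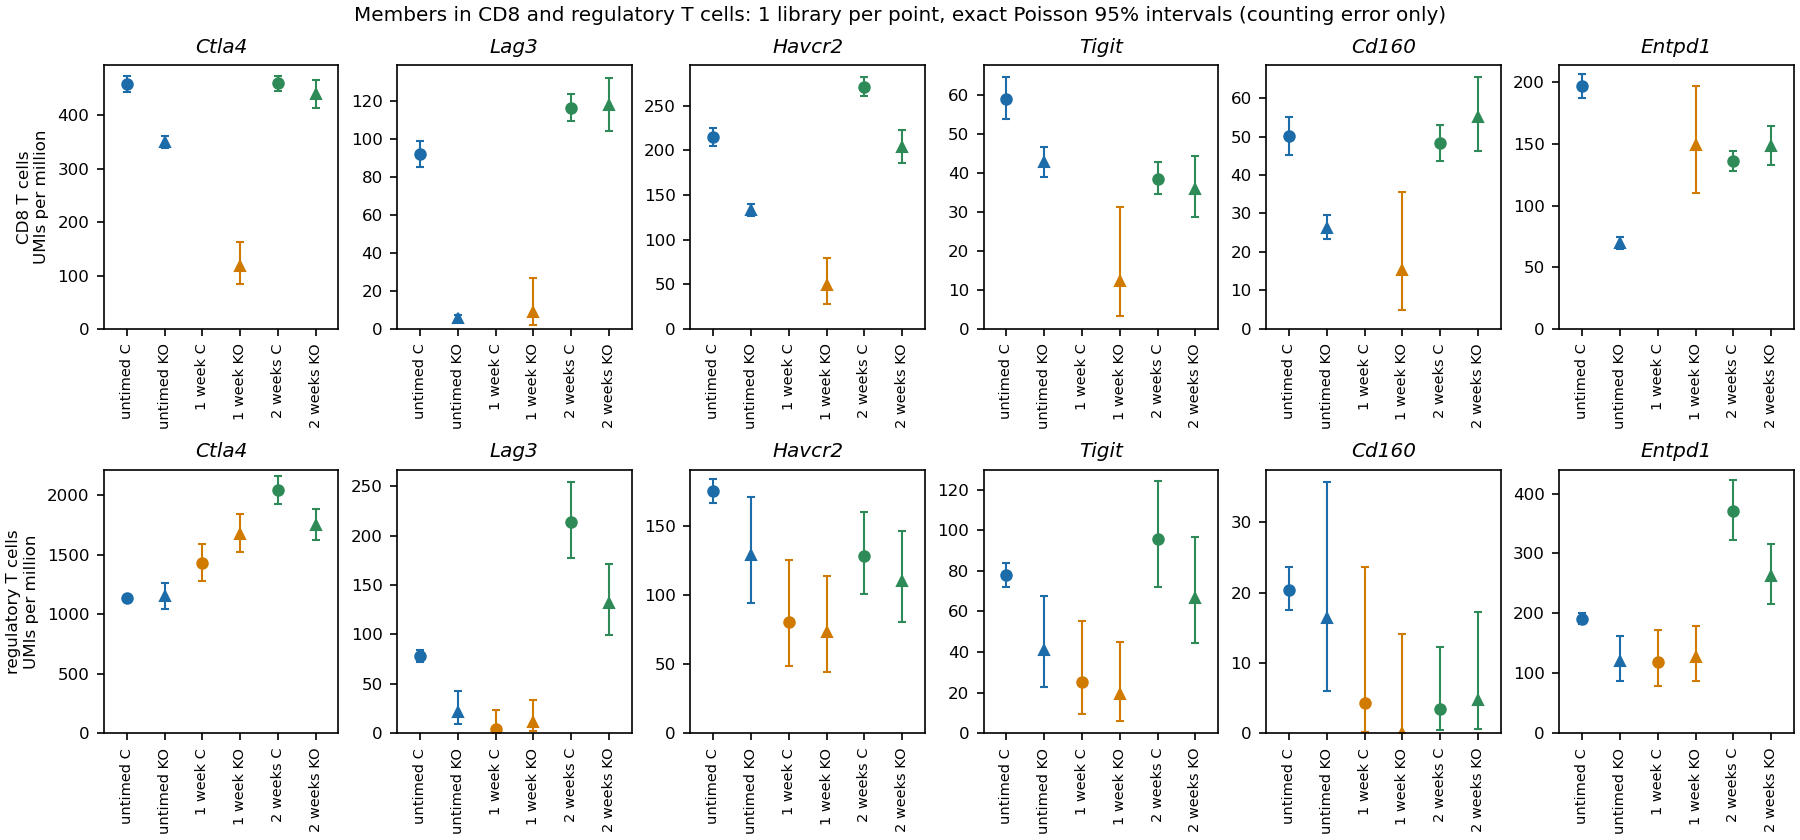
Levels of the 6 genes in CD8 T cells and in regulatory T cells by library (CPM), coloured by collection and shaped by genotype. Bars are Poisson intervals that cover counting error only. Lag3 in CD8 T cells is at 5.92 in the untimed SOX17KO library against 91.8, 116 and 118 in the untimed Control and the 2-week libraries. In the 1-week SOX17KO library it is at 9.13, from 3 UMIs.

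As ratios of SOX17KO to Control within the untimed pair, with exact conditional 95% intervals, Lag3 in CD8 T cells was 0.0646 (0.0495 to 0.0830), a 15.5-fold lower level. Entpd1 was 0.354 (0.325 to 0.386), Cd160 0.527 (0.452 to 0.613), Havcr2 0.620 (0.578 to 0.664), Tigit 0.724 (0.637 to 0.823) and Ctla4 0.763 (0.730 to 0.798). All 6 intervals lay below 1, where 34.7% of 12852 genes with at least 20 UMIs over the pair had such an interval and 24.4% one above 1. At 2 weeks only that of Havcr2 did, at 0.750 (0.679 to 0.828), against 13.2% of 11544 genes, and Lag3 was 1.01 (0.882 to 1.16). In all T cells of the untimed pair the intervals of all 6 members also lay below 1, where 39.2% of 14684 genes did.

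The untimed CD8 gates also differed in other measures. Median UMIs per cell were 5451 in Control and 3260 in SOX17KO, 30.9% and 15.4% of cells carried Mki67 or Top2a UMIs, and myeloid marker genes summed to 45.2 and 244 CPM. CD8 T cells made up 31.9% of T cells in the Control and 69.6% in the SOX17KO library. At 2 weeks 52.3% and 48.1% of CD8 T cells were cycling. The part of these differences in the receptor levels was not tested. Within libraries, none of the 6 members was called between cycling and non-cycling CD8 T cells, in edgeR's quasi-likelihood test over 4 libraries that called 4.49% of 10647 genes (3.64% higher and 0.845% lower), and none had an unadjusted p under 0.05.

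Over collections, the genotype difference was tested with the collection as a block, in 11 gates. None of the members was called in any gate, with 0% of 13153 genes called in all T cells, 0% of 12740 in CD8 T cells, 0.0107% of 9361 in CD4 T cells, 0% of 5862 in regulatory T cells, 0.294% of 4756 in gamma-delta T cells and 0.0255% of 7846 in NK cells. In the dendritic gates together 0% of 10295 genes were called, in type 1 cells 0% of 8132, in type 2 cells 0.0127% of 7859, in mature cells 0% of 5076, and in monocytes and macrophages 0% of 10026. Lag3 in CD8 T cells had the widest error, -1.85 ± 1.02 on the log2 scale (SE, 2 pairs, adjusted p 0.684). In all T cells Lag3 differed by -1.19 ± 0.77 (adjusted p 0.722), and by 0.04 ± 0.28 without the untimed pair. Without the low-count filter its difference there, -1.18 ± 0.25, was called (adjusted p 0.000191), as was that of Entpd1 in type 1 dendritic cells (0.96 ± 0.26, adjusted p 0.0352); without the untimed pair the latter was -0.03 ± 0.22. The share of all genes called without that filter is not given here, so these 2 calls have no background beside them. DESeq2 and limma-voom called no member in the 11 gates fitted. At an unadjusted p under 0.05 there were 6 of 42 combinations of a member and a gate tested, where 5.43% of all genes over the 11 gates had such a p; the gates of all T cells and all dendritic cells include their subsets. The 6 were Havcr2 in CD8 T cells and type 2 dendritic cells, Ctla4 and Entpd1 in NK cells, and Lag3 and Tigit in regulatory T cells.

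**Figure D4:**
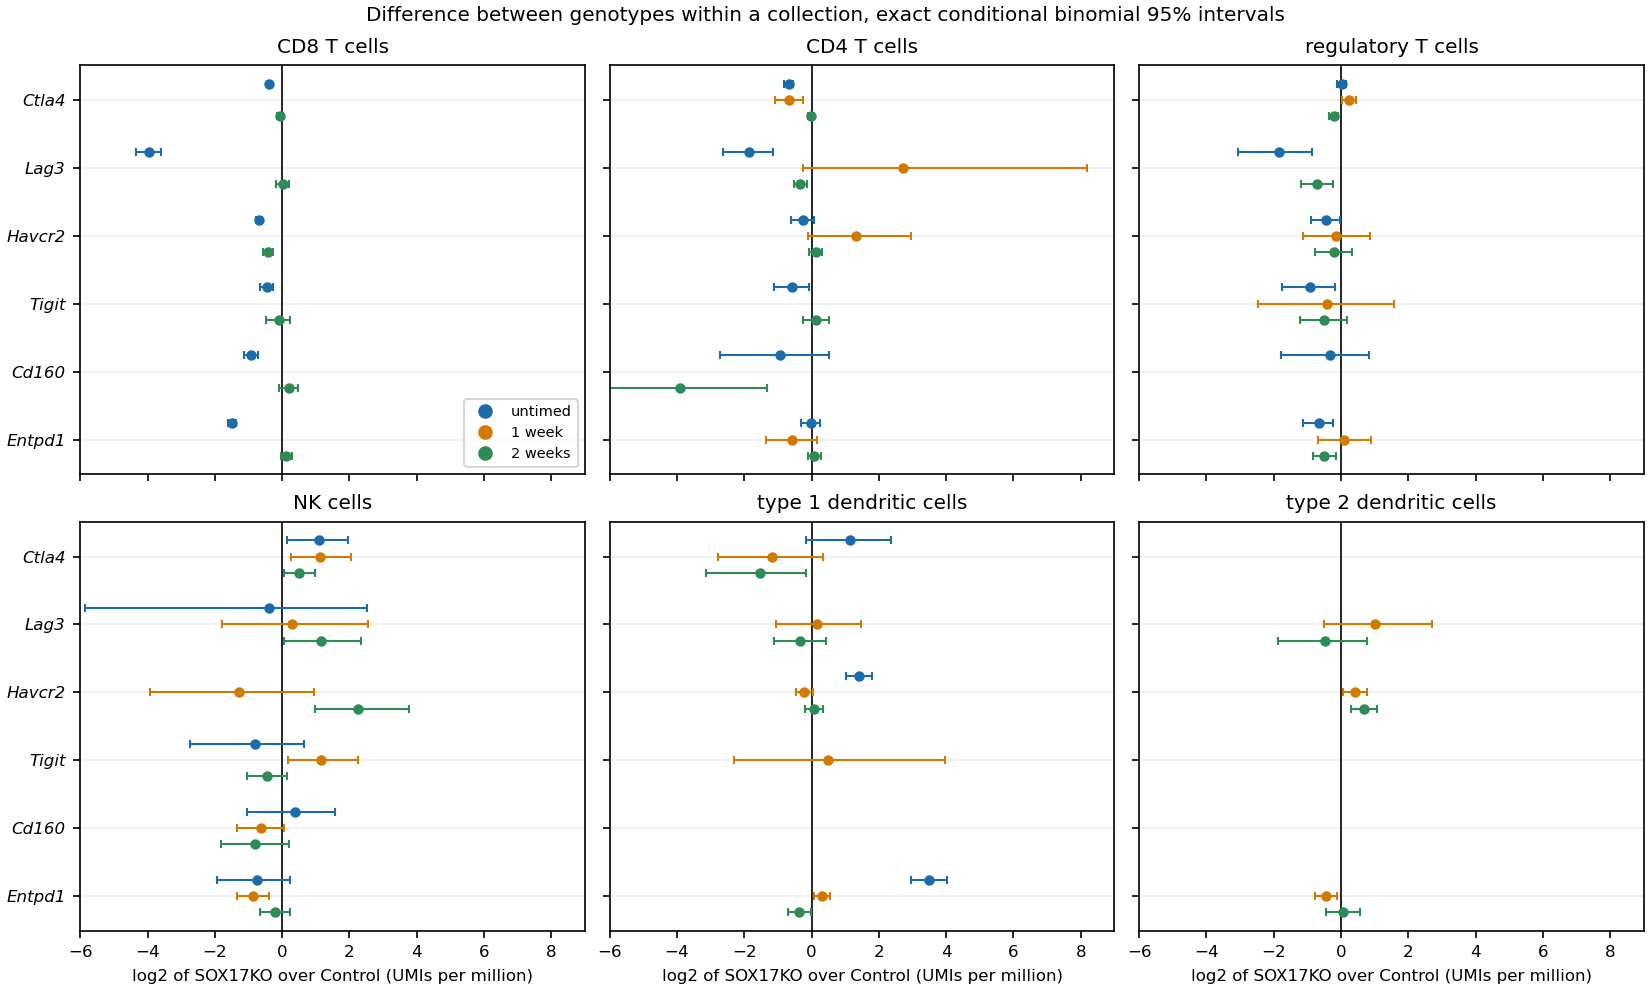
Ratio of SOX17KO to Control in each collection (log2 scale) with exact conditional 95% intervals that cover counting error only, by gene and gate. Drawn are pairs with at least 20 cells and a UMI in both libraries, except those with at most 3 UMIs in each. In CD8 T cells the untimed ratios lie below 0 for all 6 genes, and the interval of Cd160 in CD4 T cells at 2 weeks runs past the axis.

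Havcr2 in CD8 T cells was lower in SOX17KO in both pairs fitted (-0.53 ± 0.19, adjusted p 0.679), and in type 2 dendritic cells it was higher in both pairs fitted (0.51 ± 0.18, adjusted p 0.838). The type 2 ratios were 1.33 (1.04 to 1.70) at 1 week and 1.60 (1.22 to 2.08) at 2 weeks. There 8.87% and 8.02% of genes had an interval above 1. In type 1 dendritic cells Havcr2 was 2.67 (2.02 to 3.50) in the untimed pair, where 10.4% of genes had an interval above 1, 0.863 (0.727 to 1.03) at 1 week and 1.05 (0.871 to 1.27) at 2 weeks. The higher untimed share of type 1 cells with a Havcr2 UMI, 81.2% against 34.5%, was also seen after thinning, 40.6% against 8.04%, in 32 and 112 cells.

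Ctla4 in NK cells was higher in the SOX17KO library of all 3 pairs. It stood at 42.5 against 90.7 CPM in the untimed pair, 17.7 against 38.8 in the 1-week pair, and 86.0 against 123 in the 2-week pair. The ratios were 2.14 (1.10 to 3.92), 2.19 (1.21 to 4.17) and 1.43 (1.04 to 1.97), where 8.94%, 8.28% and 7.83% of genes had an interval above 1. Over the 3 pairs the log2 difference was 0.81 ± 0.23 and did not pass (adjusted p 0.808). T cell receptor constant genes in these gates were also higher in SOX17KO. They summed to 518 against 702 CPM in the untimed pair, 414 against 471 at 1 week and 512 against 518 at 2 weeks. Their part in the Ctla4 values was not tested, and the untimed SOX17KO gate held 42 NK cells. Entpd1 in NK cells was lower in all 3 pairs by the level, at -0.60 ± 0.22 (adjusted p 0.974).

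Ctla4 in regulatory T cells had ratios of 1.01 (0.915 to 1.11) in the untimed pair, 1.17 (1.02 to 1.36) at 1 week and 0.858 (0.782 to 0.941) at 2 weeks. Lag3 there was 0.280 (0.12 to 0.555) in the untimed pair and 0.616 (0.440 to 0.852) at 2 weeks. At 1 week it was the other way by level, at 4.24 CPM in Control and 11.5 in SOX17KO, from 1 and 3 UMIs. Its log2 difference over 3 pairs was -0.96 ± 0.36 (adjusted p 0.603). Tigit was 0.528 (0.294 to 0.877), 0.756 (0.183 to 2.97) and 0.700 (0.428 to 1.12) in the 3 collections, with a log2 difference of -0.66 ± 0.27 (adjusted p 0.617). In the untimed pair 4 of the 6 members had an interval below 1, where 8.69% of 11313 genes did, and at 2 weeks 3 of 5 did, where 8.45% of 6576 genes did. The untimed SOX17KO library held 53 regulatory T cells against 751 in Control.

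The share of the T cells' Ctla4 that lay in regulatory T cells varied with the library. Regulatory T cells held 55.0% of the T cells' Ctla4 UMIs in the untimed Control library and 6.88% in the untimed SOX17KO library, 61.9% and 66.1% at 1 week, and 14.3% and 21.4% at 2 weeks. Their share of all UMIs of T cells moved the same way, from 34.7% (Control) to 2.24% (SOX17KO) without a stated time, with 18.7% and 18.8% in the 1-week libraries and 4.01% and 7.47% in the 2-week libraries.

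Single CD8 T cells often carried several of the receptors, as the plot of members per cell shows. At least 3 of the 6 genes had a UMI in 46.4% of CD8 T cells of the untimed Control library and 11.7% of the untimed SOX17KO library, in 22.9% of 35 cells in the 1-week SOX17KO library, and in 51.9% and 44.3% at 2 weeks. At 1000 UMIs per cell, at least 2 genes were seen in 22.6% (20.2 to 25.2), 8.04% (7.06 to 9.11), 0% (0 to 10.0), 21.5% (19.0 to 24.1) and 18.1% (13.8 to 23.0) of cells. The untimed SOX17KO interval lies below those of the untimed Control and the 2-week libraries. In regulatory T cells at least 3 genes had a UMI in 24.1% to 60.6% of cells per library, and in NK cells in 1.14% to 8.75%.

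**Figure D5:**
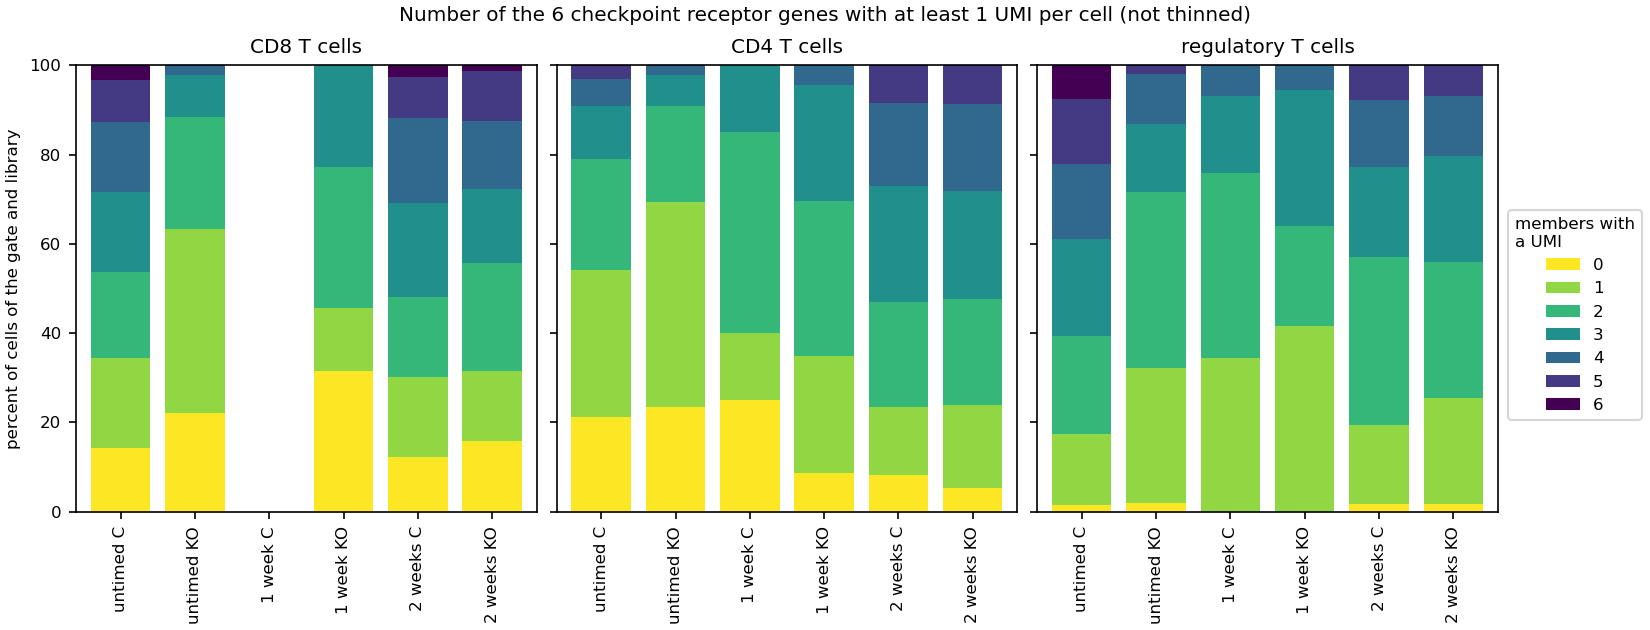
Share of cells (percent) with UMIs of 0 to 6 of the genes in each library, by gate, without thinning. In CD8 T cells at least 3 genes are found in 46.4%, 51.9% and 44.3% of cells of the untimed Control and the 2-week libraries, against 11.7% in the untimed SOX17KO library.

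Of CD8 T cells with a Lag3 UMI, 72.0% also had a Havcr2 UMI in the untimed Control library, against 30.1% of those without one. At 2 weeks the shares were 73.3% against 38.2% in Control and 58.6% against 32.6% in SOX17KO. They were nearer in the untimed SOX17KO library, 37.5% against 26.8%, and in the 1-week SOX17KO library none of the 3 cells with a Lag3 UMI had one of Havcr2, against 28.1% of those without. Cells with a Lag3 UMI were also deeper, with median UMIs of 7390 against 4759 in the untimed Control library, and the part of depth in this was not tested.

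From 1 to 2 weeks several receptors were higher in T cells of both genotypes, as a comparison of single libraries with no replicate check. No share over all genes was computed for the ratios between weeks, so the rise cannot be called particular to these receptors. Lag3 in all T cells was at 3.95 CPM at 1 week and 135 at 2 weeks in Control, a ratio of 34.2 (14.6 to 105), and at 10.1 and 123 in SOX17KO, a ratio of 12.2 (7.21 to 22.4). Havcr2 was 5.36-fold (4.09 to 7.17) and 4.06-fold (3.15 to 5.32) higher at 2 weeks, and Tigit 3.77-fold (2.23 to 6.94) and 2.36-fold (1.56 to 3.72). Ctla4 was 1.33-fold (1.22 to 1.45) and 1.28-fold (1.18 to 1.40) higher in all T cells, while regulatory T cells, its highest gate, went from 20.3% and 19.8% of T cells to 5.48% and 7.73%. Within subsets its ratio was 3.70 (2.69 to 5.23) in CD8 T cells of SOX17KO, 1.22 (1.02 to 1.47) and 1.92 (1.54 to 2.41) in CD4 T cells, and 1.43 (1.27 to 1.62) and 1.05 (0.927 to 1.18) in regulatory T cells of Control and SOX17KO. Myeloid marker genes summed to 1641 and 1352 CPM in the 1-week T cell gates and to 83.2 and 236 at 2 weeks, and T cells numbered 143 and 182 against 2082 and 763, so the time, the library and the cells captured cannot be told apart.

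Other cell types moved the same way for some members. Ctla4 in NK cells was 4.85-fold (2.77 to 9.0) higher at 2 weeks in Control and 3.16-fold (2.21 to 4.60) in SOX17KO. Lag3 in type 1 dendritic cells was 4.70-fold (2.30 to 10.6) and 3.30-fold (1.71 to 6.59) higher. Cd160 in NK cells was the other way, at 0.646 (0.367 to 1.11) and 0.578 (0.297 to 1.08), with both intervals reaching 1.

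Of 22 genes for ligands, competing receptors and downstream signalling of the members, none was called between genotypes in any gate. In all T cells 21 were tested, and the one with most UMIs was Cd28, the costimulatory receptor that competes with CTLA-4 (mean 345 CPM). Between cell types, regulatory T cells had 2 of 16 tested higher and 3 lower than CD8 T cells (all genes: 4.97% higher and 2.8% lower): Cd80, a CTLA-4 ligand, by 1.59 and Nt5e, the partner enzyme of CD39, by 1.11, against Cd226, the activating competitor of TIGIT, at -1.35, Cd96, a related receptor, at -1.51 and the phosphatase gene Ptpn6 at -0.80 on the log2 scale. CD4 T cells had 3 of 17 higher and 1 lower than CD8 T cells (all genes: 3.7% and 1.98%): Btla, a second HVEM receptor, by 1.97, the phosphatase gene Ptpn11 by 1.24 and Cd28 by 0.61, with Cd226 at -0.72.

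Gamma-delta T cells had 1 of 16 tested higher than CD8 T cells (Inpp5d, 0.75) and 5 lower (all genes: 5% and 2.74%), which were Cd80, Cd86, Cd28, Lgals3 and Btla, at -3.52 to -1.57. NK cells had 3 of 15 higher (all genes: 8.95%), Adora2a, an adenosine receptor, by 0.85, Inpp5d by 0.72 and Lgals9, which encodes galectin-9, by 0.69, and 7 lower (all genes: 7.51%), which were Cd86, Btla, Lgals3, Pvr, Cd28, Cd226 and Ptpn6, at -3.84 to -0.67. Type 1 dendritic cells had Btla (1.72) and Inpp5d (0.58) higher and Cd80 (-1.76), Pvr (-1.03) and Adora2b (-2.75) lower than type 2 cells, 2 and 3 of 13 tested (all genes: 10.5% and 12.2%). Mature dendritic cells had 4 of 12 tested higher than type 1 cells, Adora2a by 4.94, Cd80 by 2.33, Pvr by 1.46 and Cd86 by 0.85, and 5 lower, Cd226, Lgals3, Inpp5d, Ptpn6 and Hmgb1, at -3.52 to -0.67, in a comparison where 23.8% of all genes were called in each direction. Cycling CD8 T cells had Hmgb1, a TIM-3 ligand gene, higher by 0.92 than non-cycling ones, 1 of 18 tested (all genes: 3.64%).

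Over 72 sums of a gate and a library, the Pearson correlation of log2 levels between members was highest for Ctla4 and Tigit (r = 0.78) and for Tigit and Cd160 (r = 0.73), and lowest for Cd160 and Entpd1 (r = -0.16). These correlations describe cell types and libraries together, and sums of 1 library share its depth. Among 13796 genes those nearest to Ctla4 were Icos (0.91), Ubash3a (0.90) and Cd28 (0.90), and Icos and Cd28 are also its nearest coding neighbours on the chromosome. Nearest to Tigit were Cd27 (0.90), Sh2d1a (0.88) and Ubash3a (0.87), and to Cd160 Klrc2 (0.92), Samd3 (0.91) and Klrc1 (0.89). Nearest to Entpd1 were Slc2a1 (0.82), Cebpb (0.76) and Tmem189 (0.74), to Havcr2 Gpi1 (0.74), Rbpj (0.72) and Slco3a1 (0.69), and to Lag3 Rad51b (0.71), Gemin8 (0.71) and Runx2 (0.71).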

How the data were processed

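The authors deposited raw UMI counts per gene and cell barcode for 6 libraries of 10x Genomics 3' v3 RNA-seq. The matrices were written by Cell Ranger 7.0.1 per the file headers, while the submitters' processing notes name Cell Ranger 6.0.1 and mm10. The intron setting, annotation release and use of strand are not given in the sources used here.

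Barcodes with at least 200 genes and at most 10% mitochondrial UMIs were kept, and the top 0.8% per 1000 barcodes by a simulated-doublet score were removed. Cells were gated on UMIs in order: T (at least 2 of Cd3d, Cd3e and Cd3g together), B, mature (Ccr7 and Fscn1), type 1 (Xcr1, Clec9a), plasmacytoid (Siglech) and type 2 (Cd209a) dendritic cells, NK cells (Ncr1, Klrb1c), neutrophils, and monocytes and macrophages. T cells were split by Foxp3, Trdc, Cd8a or Cd8b1, and Cd4. Cycling means a UMI of Mki67 or Top2a. Counts were summed per gate and library where at least 20 cells were present. Genotypes were compared with the collection as a block, and cell types with the library as a block, by edgeR's quasi-likelihood test (TMM, low-count filter, Benjamini-Hochberg threshold 0.05 over all genes). The tests were run on simulated counts with 1 fixed dispersion and no differences between libraries or collections. That run does not cover the spread between the libraries and pairs here. Ratios within a pair carry exact conditional binomial intervals, and shares exact Clopper-Pearson intervals, at 95%. Levels were ordered by the mean of log2(CPM + 1). Depth was equalised by thinning cells to 1000 UMIs.

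The text names the 6 members, the 3 genes with the highest correlation to each (genes with at least 100 UMIs), and of 22 listed partner genes those called or, failing that, the one with most UMIs. The members and lists were chosen with earlier results of these data known. Alternatives were DESeq2, limma-voom, RLE size factors, no low-count filter, no doublet removal, a 5% mitochondrial limit, gates raised by 1 UMI, no collection term, thinning to 500 UMIs, a pseudocount of 10, and leaving out each library or pair. Versions were R 4.3.3, edgeR 4.0.16, limma 3.58.1, DESeq2 1.42.0, Python 3.11.15, numpy 2.4.6, scipy 1.17.1, scikit-learn 1.9.0 and pandas 2.3.3.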

Additional observations from a re-analysis of the deposited data

Results flagged for a closer look

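In 9 of 83 gene and gate combinations the ratio of SOX17KO to Control lay on opposite sides of 1 in different collections, with each counting interval excluding 1. Each collection is 1 pair of libraries, so the difference between collections was not tested, and these intervals cover counting error only.

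Ctla4 was at 0.520 in all T cells of the untimed pair and 1.07 at 2 weeks, and in regulatory T cells at 1.17 at 1 week and 0.858 at 2 weeks. In T cells without a subset it was 0.748 in the untimed pair, 1.49 at 1 week and 0.691 at 2 weeks. In monocytes and macrophages Ctla4 was 7.76 in the untimed pair, from 14 and 29 UMIs, and 0.407 at 2 weeks, from 37 and 18. T cell receptor constant genes stood at 25.5 (Control) and 165 CPM (SOX17KO) in these untimed gates and at 12.9 and 11.3 CPM at 2 weeks. At the T cells' ratio they would come with 14.9 and 16.0 Ctla4 UMIs in the former gates and 18.7 and 20.7 in the latter; their part in the difference was not tested.

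Entpd1 was at 0.461 in all T cells of the untimed pair and 1.10 at 2 weeks, and in cycling CD8 T cells at 0.367 and 1.20. In type 1 dendritic cells it was 11.2 in the untimed pair, 1.24 at 1 week and 0.779 at 2 weeks. Lag3 in all dendritic cells was 0.0878 in the untimed pair, from 143 and 2 UMIs, and 2.00 at 1 week. The untimed SOX17KO library held 2 plasmacytoid cells, the subset with most Lag3, against 117 in Control. Tigit in CD4 T cells was 0.666 in the untimed pair and 2.49 at 1 week, where the Control library of 20 cells had no UMI and was set to 3.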

How the results depend on the processing

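Not all log2 differences of the members were followed under other settings. Followed were a chosen list between genotypes and all tested in regulatory, gamma-delta and NK against CD8 T cells. In the other comparisons of cell types only called members were followed, and the cycling comparison was left out. Of these, 229 of 239 under another setting kept their direction and side of the threshold, 6 lost a call, 3 gained one and 1 changed sign. With a library or pair left out 116 of 132 kept both, 14 lost a call and 2 changed sign. The log2 difference of Lag3 between regulatory and CD8 T cells, 0.39, was -0.014 with gates raised by 1 UMI; it was called in neither case. Leaving out 1 library, the number of members called ranged from 1 to 2 for regulatory and for CD4 against CD8 T cells (2 with all libraries), from 3 to 5 for gamma-delta T cells (5), from 2 to 4 for NK cells (4) and from 0 to 2 for type 1 against type 2 dendritic cells (2). With gates raised by 1 UMI, 2 members, Ctla4 and Havcr2, were called for gamma-delta T cells. For type 1 against type 2 dendritic cells 1 member, Havcr2, was called with DESeq2, without doublet removal, with the 5% mitochondrial limit and with raised gates, in place of 2. Without the low-count filter 1 member was called between genotypes in T cells (Lag3, -1.18 ± 0.25, adjusted p 0.000191) and 1 in type 1 dendritic cells (Entpd1, 0.96 ± 0.26, adjusted p 0.0352), in place of 0. Leaving out 1 pair, the difference of Lag3 in T cells (-1.19 with all pairs) ranged from -1.72 to 0.043 and that of Entpd1 in type 1 dendritic cells (0.98) from -0.031 to 1.82, the change of sign coming without the untimed pair; neither was called. The cause was not tested. Shares of all genes called under these other settings are not given here, so the counts of members called have no background beside them. Of the ratios within pairs 162 kept and 4 changed their value beyond the interval with raised gates, and 33 of 66 thinned shares moved at 500 UMIs. Each gene kept its highest gate with a pseudocount of 10 and with raised gates.

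With 1 library per genotype and collection, the spread between animals was not measured. The CD8 and type 2 fits rest on 2 pairs, and at 1 week the gates of CD4, CD8, regulatory and gamma-delta T cells and of plasmacytoid cells that were used held 20 to 36 cells, which limits their values.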
